A study of Mus musculus with 33 samples.

Results

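The ErbB receptor family and its ligands of the epidermal growth factor (EGF) family were followed in mammary epithelium of PTHrP WT and PTHrP KO mice, with and without a polyoma middle T (PyMT) tumor. The members were taken by gene symbol from the table of counted reads. They were 4 receptors (Egfr, Erbb2, Erbb3 and Erbb4) and 6 ligands (Areg, Ereg, Hbegf, Tgfa, Btc and Nrg1), 10 of 55487 genes, and all 10 were among the 36527 genes that held enough reads to be tested. The study compared transcriptomes across tumor ages and between the genotypes. RNA of 33 mice was sequenced, 1 library per mouse, and the 33 libraries fell into 14 groups by genotype, tissue and collection week. PTHrP WT mice (Pthrp wt/wt) gave 10 tumors, 3 each at weeks 6, 8 and 10 and 1 at week 12, and 8 tumor-free glands, 2 each at weeks 6, 8, 10 and 12. PTHrP KO mice (Pthrp flox/flox) gave 9 tumors, 3 each at weeks 8, 10 and 12, and 6 tumor-free glands, 2 at each of those weeks. Week 12 of the WT tumors was a lone library, which entered no comparison between groups but is among the 19 tumors of the correlations. Per the study's methods, the PyMT, Cre and floxed lines were on or backcrossed to an FVB background, and all mice carried MMTV-Cre, which drives Cre in mammary epithelium, and the mTmG reporter, which turns cells green after Cre and whose background is not given in the sources used here. Only the tumor mice carried the MMTV-PyMT transgene, so every tumor and gland comparison is also one of PyMT carriers and non-carriers. The labels list no treatment. Cells were cultured for a short time in medium with serum and then sorted for GFP, so the levels are those of cultured, sorted epithelial cells and not of intact tissue.

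The 4 ErbB proteins are receptor tyrosine kinases that signal as pairs. Egfr is bound by amphiregulin (Areg), epiregulin (Ereg), heparin-binding EGF-like growth factor (Hbegf), transforming growth factor alpha (Tgfa) and betacellulin (Btc), while neuregulin 1 (Nrg1) is bound by Erbb3 and Erbb4. Erbb2 has no known ligand of its own and serves as a partner of the other receptors, and Erbb3 has little kinase activity and relies on its partner. In the mammary gland Areg is the EGF-family ligand through which estrogen drives the growth of ducts, and Erbb4 is known for its part in lactation.

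Depth ranged from 28419983 to 130981596 counted reads per library. In 4 KO libraries over 5% of the reads lay on ribosomal RNA (rRNA) genes, namely 15.7% in replicate 2 of the glands of week 8, 8.04% in replicate 1 of the glands of week 10, 18.8% in replicate 2 of the glands of week 12 and 12.0% in replicate 2 of the tumors of week 8. Reads on the polyoma sequence were 0 in the 14 glands and above 0 in the 19 tumors. Whole-gene reads of Pthlh, which encodes PTHrP, numbered 57 to 926 per library and do not check the genotype, because the part between the loxP sites was not counted separately. The labelled cell type, mammary epithelium, was checked against markers. The summed level of 10 luminal genes was 5963 to 13390 CPM (reads scaled to a common library size) in each library, while 6 adipocyte genes summed to at most 1.29 CPM, 6 lymphocyte genes to at most 12.5 CPM and 6 endothelial genes to at most 15.9 CPM. Fibroblast markers reached 775 CPM in 1 library, and macrophage markers, of which Cd14 is also in the luminal progenitor list, summed to 62.6 to 418 CPM.

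Areg, Ereg and Btc are neighbours on chromosome 5 of the mouse genome (build GRCm38). Ereg lies at chr5:91074622-91093646 on the plus strand, Areg begins 46.0 kb further on at chr5:91139599-91148432 on the plus strand, and Btc lies at chr5:91357261-91402994 on the minus strand. From the start of Ereg to the end of Btc the 3 genes span 328 kb. Upstream sequence from RefSeq (GRCm38.p6) was at hand for 6 of the 10 genes. The 250 bases before the start of Areg and of Btc are shown because the levels of these 2 neighbours moved together most closely among the ligands in tumors. Capitals mark the letters TGACGTCA, a cyclic AMP response element, which were searched on both strands; the search of Btc found none.
Areg, chr5:91139349-91139598, plus strand: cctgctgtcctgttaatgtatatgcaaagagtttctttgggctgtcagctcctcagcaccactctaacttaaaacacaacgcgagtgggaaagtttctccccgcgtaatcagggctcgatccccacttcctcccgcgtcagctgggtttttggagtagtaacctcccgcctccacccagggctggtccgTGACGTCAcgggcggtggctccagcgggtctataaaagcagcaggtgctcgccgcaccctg
Btc, chr5:91402995-91403244, minus strand: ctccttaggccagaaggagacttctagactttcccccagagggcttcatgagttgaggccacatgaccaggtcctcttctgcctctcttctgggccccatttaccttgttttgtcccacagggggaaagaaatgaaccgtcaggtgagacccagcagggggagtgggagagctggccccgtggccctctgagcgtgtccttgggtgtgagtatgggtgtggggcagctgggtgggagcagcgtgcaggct
The match in Areg begins 61 bases before the start (position -61). The same 8 letters were present in 508 of 32851 mouse promoters of that length, or 1.55%, and in no other of the 6 promoters read. The letters TGANTCA, an AP-1 type element, were present in 6.75% of all promoters and in none of the 6. A match is a description of the letters only.

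The receptors were among the steadiest of the 10 genes, with the exception of Erbb4, and the ligands spanned widely. On a scale of CPM per kilobase of exon, which allows levels of different genes to be set side by side, the median over the 33 libraries was 30.9 for Erbb3, 23.5 for Hbegf, 22.8 for Egfr, 17.9 for Erbb2, 9.79 for Areg, 5.34 for Tgfa, 1.59 for Ereg, 1.58 for Nrg1, 0.931 for Btc and 0.0469 for Erbb4. From the lowest to the highest library the CPM differed 1.58-fold for Erbb2, 2.00-fold for Egfr and 2.20-fold for Erbb3. The same range was 41.6-fold for Areg, 38.9-fold for Ereg, 19.8-fold for Nrg1 and 17.0-fold for Erbb4, with 6.89-fold for Hbegf, 4.32-fold for Btc and 3.50-fold for Tgfa between them.

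**Figure D1:**
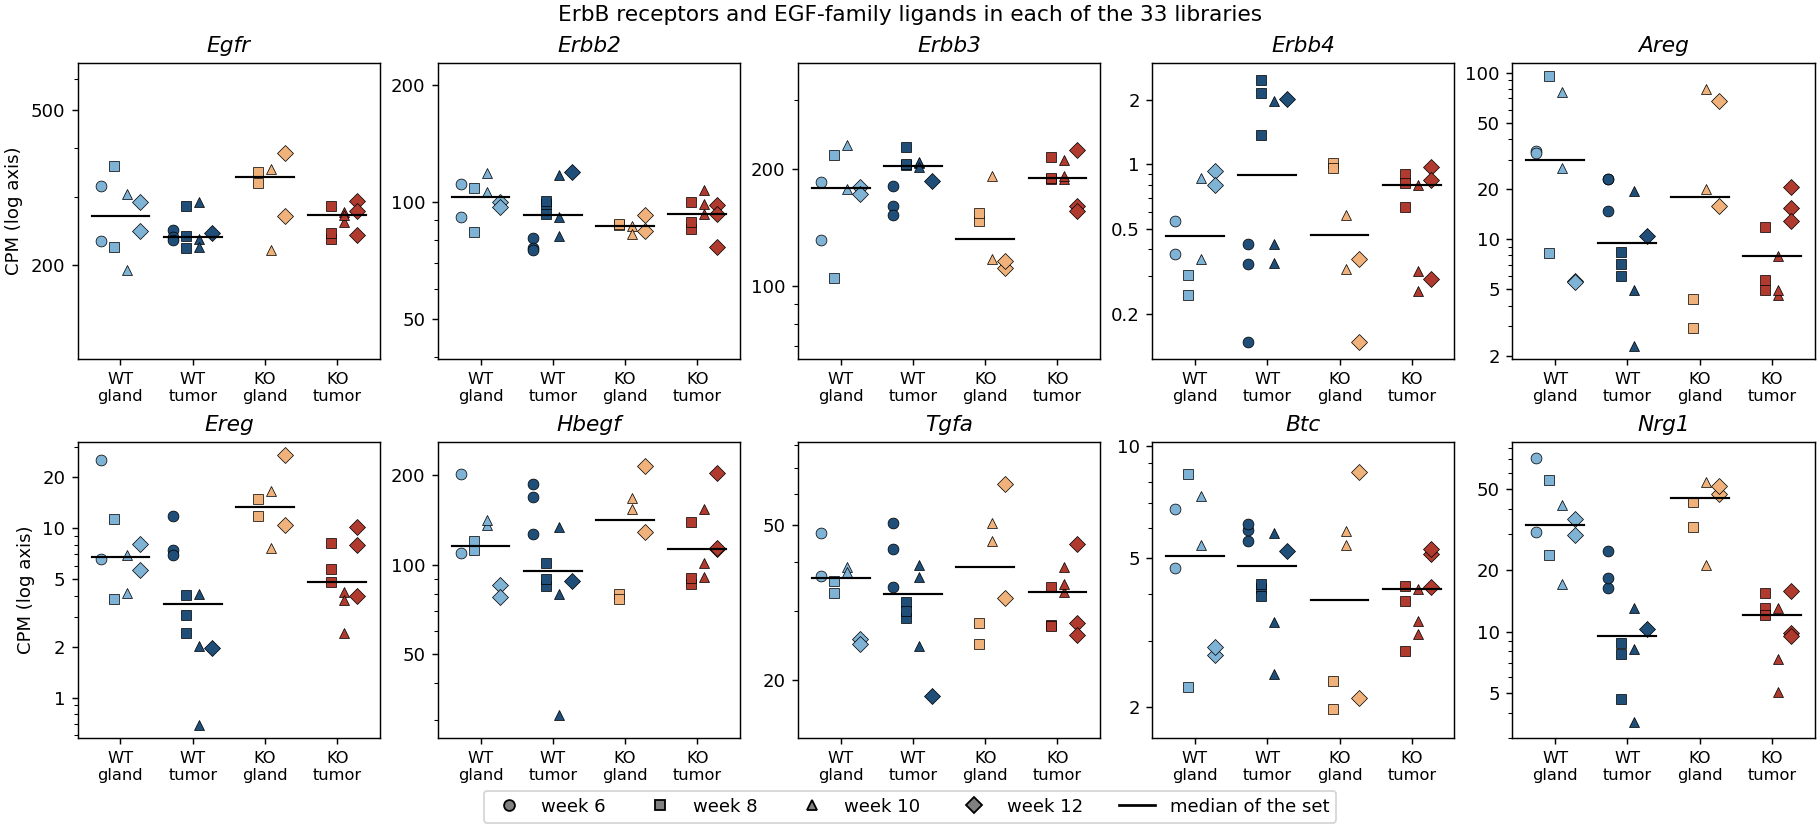
Level of each of the 10 genes in each of the 33 libraries, in CPM on log axes, with the shape of a point giving the collection week and the line the median of the set. Nrg1 lay lower in tumors than in glands of both genotypes, while Egfr and Erbb2 spanned at most 2.00-fold over all libraries.

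**Figure D2:**
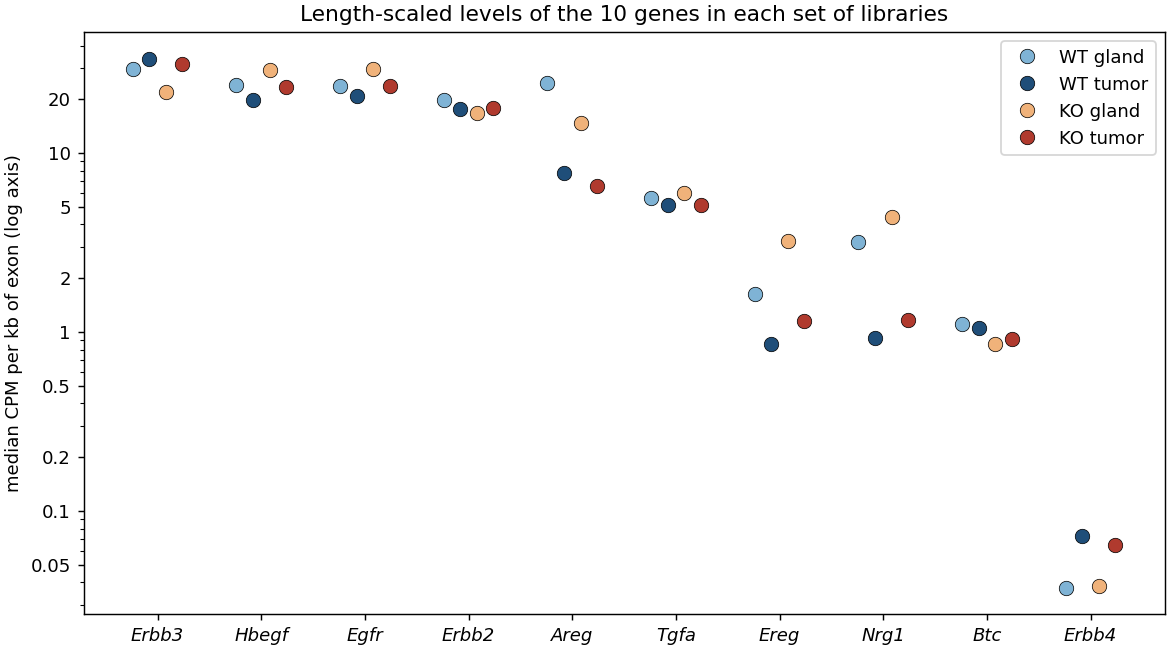
Median level of each gene in the 4 sets of libraries, in CPM per kilobase of exon on a log axis, with genes ordered by their median over all libraries. Erbb4 was the lowest in each set, Areg in WT glands (24.6) was as high as Hbegf (24.1), and Areg, Ereg and Nrg1 had lower medians in tumors than in glands of the same genotype.

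Of the summed ligand level per kilobase, Hbegf made up a median of 45.1% in WT glands and 55.4% in WT tumors, and 50.6% in KO glands and 60.6% in KO tumors. Areg followed with 32.7% in WT glands, 22.4% in WT tumors, 24.3% in KO glands and 14.8% in KO tumors. Nrg1 made up 6.95% in WT glands and 2.55% in WT tumors, and 8.14% in KO glands and 2.24% in KO tumors. The Areg share ran from 8.30% to 69.9% over the 14 glands. Of the summed receptor level per kilobase, Erbb4 was at most 0.275% in any library.

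Tumors were first compared with tumor-free glands of the same genotype and age, separately for each week and as the mean over the 3 weeks that both tissues share. A gene was called changed at a fold change over 1.5 in either direction with an adjusted p under 0.1, from edgeR's quasi-likelihood test with Benjamini-Hochberg adjustment over all genes tested, and the adjusted p-value of each comparison is from this test. Over the mean of weeks 6, 8 and 10 in WT mice, 4 of the 10 genes were called. Nrg1, Areg and Ereg were lower in tumors and Erbb4 was higher, against a background of 15.7% of all genes called, 6.21% higher and 9.53% lower. Over the mean of weeks 8, 10 and 12 in KO mice, 3 of the 10 were called, and Nrg1, Ereg and Areg were lower, against 10.6% of all genes, 5.16% higher and 5.44% lower. The median log2 fold change of the 10 genes was -0.27 in WT and -0.18 in KO, and that of all genes tested was 0.03 and 0.09. In such bulk libraries, fewer cells of a type and less RNA per cell cannot be told apart.

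**Figure D3:**
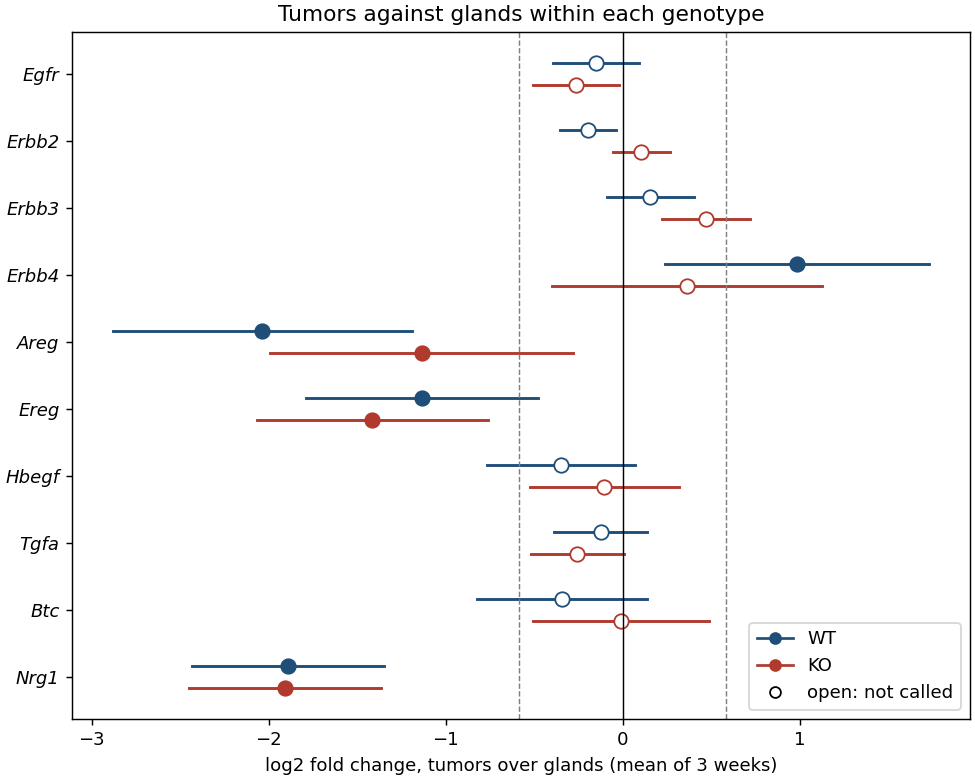
Log2 fold change of tumors over glands for each of the 10 genes, as the mean over the 3 shared weeks, in WT (weeks 6, 8 and 10) and KO (weeks 8, 10 and 12) mice, with bars for the 95% confidence interval, open circles for genes not called and dashed lines at a fold change of 1.5. The intervals of Nrg1, Areg and Ereg lay below 0 in both genotypes, and those of Hbegf, Tgfa and Btc included 0.

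Nrg1 was the most uniform difference. In WT glands its level was 17.2 CPM at the lowest, 33.3 at the median and 71.1 at the highest, and in WT tumors 3.59, 9.57 and 24.7. In KO glands it was 21.1, 45.3 and 54.3 CPM, and in KO tumors 5.02, 12.1 and 15.8. The KO tumors and glands did not overlap, and in WT mice 8 of 10 tumors lay below each gland. In each of the 6 comparisons by week the tumors lay below the glands of that week with no overlap, a pattern shown by 1.91% of all genes tested. Tumors were 3.71-fold lower in WT mice (log2 fold change -1.89 ± 0.28 SE, adjusted p = 1.19e-05) and 3.76-fold lower in KO mice (-1.91 ± 0.28, adjusted p = 1.75e-05). By week, Nrg1 was called at week 8 (-2.48, adjusted p = 0.00133) and week 10 (-1.83, adjusted p = 0.0228) in WT, and at week 10 (-2.15, adjusted p = 0.00871) and week 12 (-2.08, adjusted p = 0.0101) in KO. At the youngest age of each genotype the values were -1.37 (adjusted p = 0.116, WT week 6) and -1.49 (adjusted p = 0.131, KO week 8), short of the threshold. Both were called with no filter on low counts (adjusted p = 0.00595 and 0.00408), a stricter filter (0.0681 and 0.0774), DESeq2 (0.0461 and 0.0378) and a fit on the groups compared only (0.053 and 0.0115). Leaving out 1 library moved the value at WT week 6 between -1.85 and -0.64, and that at KO week 8 between -1.65 and -1.28. The call in WT at week 10 was lost without replicate 1 of the glands (-1.05) or replicate 1 of the tumors (-1.47), and that in KO at week 10 without replicate 2 of the glands (-1.31). In a fit on the groups compared only, the calls at WT week 10 (-1.80, adjusted p = 0.185) and KO week 12 (-2.10, adjusted p = 0.145) were lost. That fit called 995 of 24137 genes at WT week 10 and 0 of 22035 at KO week 12. The main fit called 2240 and 2233, so the loss at KO week 12 was not particular to Nrg1. Leaving out each library in turn moved the mean over weeks between -2.06 and -1.63 in WT and between -2.09 and -1.63 in KO, with the call kept.

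Ereg was also called lower in tumors of both genotypes over the mean of weeks. WT glands held 3.84 CPM at the lowest, 6.78 at the median and 25.3 at the highest, and WT tumors 0.691, 3.55 and 11.8. KO glands held 7.67, 13.3 and 26.9 CPM, and KO tumors 2.41, 4.79 and 10.1. The ranges overlapped in both genotypes, although 5 of 6 KO glands lay above each KO tumor and 5 of 10 WT tumors below each WT gland. Tumors were 2.67-fold lower in KO mice (-1.42 ± 0.33, adjusted p = 0.00366) and 2.19-fold lower in WT mice (-1.13 ± 0.33, adjusted p = 0.0167). Without the 4 libraries rich in rRNA the KO value was -1.31 (adjusted p = 0.0505). The WT call was lost without replicate 1 of the glands of week 6 (-0.71, adjusted p = 0.167) or replicate 1 of those of week 8 (-0.81, adjusted p = 0.124). By week, the KO tumors of week 10 were called (-1.81, adjusted p = 0.08), a call that was lost without replicate 2 of the glands (-1.15, adjusted p = 0.643) or any single one of the 3 tumors (adjusted p from 0.117 to 0.296), and that the replicate block (adjusted p = 0.106) and the rRNA share as a covariate (adjusted p = 0.139) each ended.

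Areg fell in tumors as well, but its glands differed widely among themselves. The 2 WT glands held 33.6 and 33.04 CPM at week 6, 8.22 and 95.1 at week 8, 26.8 and 76.7 at week 10, and 5.59 and 5.58 at week 12. The 2 KO glands held 4.40 and 2.94 CPM at week 8, 79.6 and 20.2 at week 10, and 15.8 and 67.8 at week 12. Replicate glands of one week thus lay far apart in 4 of 7 groups, and the KO glands of week 8 were as low as the lowest tumors. WT tumors held 14.8, 23.1 and 22.9 CPM at week 6, 8.40, 6.02 and 7.06 at week 8, 2.29, 4.96 and 19.4 at week 10, and 10.5 in the lone tumor of week 12. KO tumors held 11.9, 4.98 and 5.69 CPM at week 8, 7.97, 4.66 and 4.97 at week 10, and 20.6, 15.5 and 12.9 at week 12. Tumors never exceeded 23.1 CPM, while 7 of 14 glands did. WT tumors were 4.10-fold lower over the mean of weeks (-2.04 ± 0.43, adjusted p = 0.00106), and were called at week 8 (-2.85, adjusted p = 0.0179) and week 10 (-2.54, adjusted p = 0.0497). The week 10 call was lost without replicate 2 of the glands (-1.60, adjusted p = 0.446), replicate 1 (-2.08, adjusted p = 0.202) or replicate 2 (-2.25, adjusted p = 0.153) of the tumors, and in a fit on the groups compared only (-2.52, adjusted p = 0.224), and the value was -3.84 (adjusted p = 0.00672) without replicate 3 of the tumors. The week 8 value rested on 1 gland, since without replicate 2 it was -0.20 (adjusted p = 0.976), and the mean over weeks was then -1.15 (adjusted p = 0.0498). In KO mice the mean over weeks was -1.14 ± 0.44 (adjusted p = 0.0899), or -1.19 (adjusted p = 0.102) with the replicate block, with a value of 1.03 at week 8 (adjusted p = 0.709), -3.08 at week 10 (adjusted p = 0.0182) and -1.35 at week 12 (adjusted p = 0.41). The KO mean lost its call without any single one of 10 libraries, and was -0.64 (adjusted p = 0.497) without replicate 2 of the glands of week 12 and -0.70 (adjusted p = 0.433) without replicate 1 of those of week 10, both rich in rRNA. Without all 4 libraries rich in rRNA it was -0.23, and the KO value at week 10 was -1.78. Leaving out 1 library moved the KO value at week 10 between -3.76 and -1.78. Its call was lost without replicate 1 of the glands (-1.78) or replicate 3 of the tumors (-2.98, adjusted p = 0.1).

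Erbb4, the least abundant receptor, was the gene called higher in WT tumors. It held 3 to 247 reads per library, with a median of 32, so counting error was large in the libraries with few reads. The WT tumors held 0.422, 0.341 and 0.147 CPM at week 6, 2.15, 1.37 and 2.49 at week 8, 1.98, 0.425 and 0.346 at week 10, and 2.04 in the lone tumor of week 12. WT glands held 0.244 CPM at the lowest, 0.463 at the median and 0.936 at the highest, KO glands 0.148, 0.470 and 1.02, and KO tumors 0.256, 0.803 and 0.971. Thus 5 WT tumors, the 3 of week 8, 1 of week 10 and that of week 12, stood above all other libraries, and the remaining WT tumors were within the range of the glands or, for 1 of week 6, below the WT glands. WT tumors of week 8 were 7.27-fold higher than the glands of that week (2.86 ± 0.70, adjusted p = 0.00981), a call that was lost without replicate 1 of those glands (2.72, adjusted p = 0.114). The mean over weeks was 0.98 ± 0.38 (adjusted p = 0.0771), was 0.56 (adjusted p = 0.274) without replicate 1 of the tumors of week 10, and lost its call without any single one of 9 libraries. In KO mice the mean over weeks was 0.36 ± 0.39 (adjusted p = 0.73).

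Erbb3 was 1.38-fold higher in KO tumors (0.47 ± 0.13, adjusted p = 0.0118), which passed the test but not the fold threshold. KO glands held 111 CPM at the lowest, 132 at the median and 192 at the highest, and KO tumors 156, 189 and 224. Of the 6 KO glands, 5 lay below each KO tumor, and the sixth, replicate 1 of week 10, lay among them and was rich in rRNA. Without the 4 libraries rich in rRNA the value was 0.61 (adjusted p = 0.0149), past both thresholds. KO tumors of week 12 were called higher (0.67 ± 0.22, adjusted p = 0.0875). That call was lost with DESeq2 size factors (0.63, adjusted p = 0.118), the replicate block (0.65, adjusted p = 0.125) and the rRNA share as a covariate (0.66, adjusted p = 0.106). A fit on the groups compared only, which called 0 of 22035 genes, ended it too (0.64, adjusted p = 0.265). It was also lost without the 4 libraries (0.71) and without any single one of 3 libraries. WT glands held 105, 179 and 231 CPM and WT tumors 152, 203 and 228, so that tumors lay within the span of the glands, with a value of 0.15 ± 0.13 (adjusted p = 0.465). WT tumors of week 8 were called higher without replicate 2 of the glands (1.02, adjusted p = 0.0099), and leaving out 1 library moved that value between -0.03 and 1.02.

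Egfr and Erbb2 moved little. Egfr ranged from 195 to 360 CPM with a median of 268 in WT glands, from 221 to 291 with a median of 237 in WT tumors, from 219 to 389 with a median of 336 in KO glands, and from 233 to 292 with a median of 269 in KO tumors. Pooled over weeks, tumors thus lay within the span of the glands in both genotypes, although at KO week 8 they lay below them (means of 253 and 336 CPM), as for 12.5% of all genes, with log2 fold changes of -0.15 ± 0.12 in WT (adjusted p = 0.478) and -0.26 ± 0.12 in KO (adjusted p = 0.19). Erbb2 ranged from 83.9 to 119 CPM with a median of 103 in WT glands, from 75.4 to 119 with a median of 92.5 in WT tumors, from 82.8 to 92.7 with a median of 87.0 in KO glands, and from 76.9 to 108 with a median of 93.4 in KO tumors. Pooled over weeks its tumors and glands overlapped, although tumors lay below glands at WT week 6 (means of 77.5 and 102 CPM) and above at KO week 10 (99.9 and 84.8 CPM), as for 17.4% and 13.9% of all genes, and the values were -0.19 ± 0.08 in WT (adjusted p = 0.102) and 0.10 ± 0.08 in KO (adjusted p = 0.538). The 95% interval of the Erbb2 change was -0.35 to -0.04 in WT and -0.06 to 0.26 in KO, so a change of the fold threshold lay outside both.

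The ligands Hbegf, Tgfa and Btc were not called in any comparison of tumors with glands under the settings used for the calls above. Hbegf had medians of 116 CPM in WT glands, 95.6 in WT tumors, 141 in KO glands and 113 in KO tumors, within an overall range of 31.4 to 216. Tgfa had medians of 36.4, 33.2, 38.9 and 33.5 CPM in the same order and a range of 18.1 to 63.5. Btc had medians of 5.05, 4.75, 3.87 and 4.12 CPM and a range of 1.97 to 8.52. Pooled over weeks, tumors and glands overlapped for all 3 genes in both genotypes. Within a week, tumors lay apart from glands for Hbegf at WT weeks 8 and 10 (below) and KO week 8 (above), for Tgfa at WT week 8 and KO week 10 (below), and for Btc at KO week 8 (above) and KO week 10 (below). Of all genes, tumors lay below glands for 17.0% at WT week 8, 12.7% at WT week 10 and 15.0% at KO week 10, and above for 15.0% at KO week 8, so such separations were common. Among all 10 members, tumors lay below glands for 3, 3 and 4 at WT weeks 6, 8 and 10 and above for 0, 1 and 0. At KO weeks 8, 10 and 12 they lay below for 4, 5 and 2 and above for 4, 1 and 1. The shares of all genes at KO week 8 were 12.5% below and 15.0% above. Whether the members exceeded such shares was not tested. The log2 fold changes in WT and KO were -0.35 ± 0.21 and -0.10 ± 0.22 for Hbegf, -0.13 ± 0.14 and -0.26 ± 0.14 for Tgfa, and -0.35 ± 0.25 and -0.01 ± 0.25 for Btc, with adjusted p-values from 0.268 to 1. Tgfa was called lower at KO week 12 with the stricter filter (-0.60, adjusted p = 0.0896) and without replicate 1 of the glands (-0.94, adjusted p = 0.0338) or of the tumors (-0.82, adjusted p = 0.0327), and Hbegf at WT week 10 without replicate 3 of the tumors (-1.32, adjusted p = 0.035).

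Called counts by week stood as follows. WT mice had 0 of the 10 genes called at week 6, where 5.86% of all genes were called, 3 at week 8 (background 9.19%) and 2 at week 10 (background 6.13%). KO mice had 0 called at week 8, where the background was 2.49%, 3 at week 10 (background 5.66%) and 2 at week 12 (background 6.11%). For the ages with 0 calls, 2 genes in WT and 1 in KO had an unadjusted p under 0.05, and DESeq2 called 1 gene, Nrg1, in each. Of all 36527 genes, 5658 and 3885 had such a p, and DESeq2 called 3065 and 1695.

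Cell type markers moved with these tumor comparisons. All 10 basal or myoepithelial markers were called lower in tumors of both genotypes, with median log2 fold changes of -2.81 in WT and -2.66 in KO, and none of the 10 was at 0 in any library. Their summed level was 4717 to 17559 CPM in WT glands and 978 to 3267 in WT tumors, and 5015 to 16801 in KO glands and 1483 to 4850 in KO tumors. Of 6 markers of hormone-sensing luminal cells, 5 were called lower in WT and 3 in KO, and of 6 luminal progenitor markers 5 were called higher and 1, Aldh1a3, lower in both. Summed levels of the hormone-sensing list were 75.9 to 319 CPM in WT glands, 28.0 to 69.4 in WT tumors, 41.8 to 263 in KO glands and 25.8 to 72.0 in KO tumors. Fibroblast markers were called lower for 6 of 10 in WT and 1 of 10 in KO, with sums of 12.5 to 775 CPM over all libraries. Proliferation markers were called higher for 6 of 6 in WT and 0 of 6 in KO, endothelial markers lower for 4 of 6 in WT and 0 of 6 in KO, and of 8 macrophage markers 4 were called lower and 1 higher in WT and 1 higher in KO. The part of the marker shifts between tumors and glands in the values of Nrg1, Ereg, Areg, Erbb4 and Erbb3 was not tested.

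The genotypes were compared next, WT minus KO, to ask whether loss of PTHrP went with a change of the family. None of the 10 genes was called between tumors of the same age (mean of weeks 8 and 10, background 0.512%), tumors of the same stage (weeks 6, 8 and 10 of WT against weeks 8, 10 and 12 of KO, background 1.11%) or glands (mean of weeks 8, 10 and 12, background 0.906%). At an unadjusted p under 0.05 there were 2, 0 and 3 genes, and DESeq2 called 1 (Erbb4), 0 and 1 (Ereg). Of all 36527 genes, 3996, 4832 and 4514 had an unadjusted p under 0.05 in these comparisons, and DESeq2 called 664, 655 and 741. Same-age and same-stage comparisons share the tumors of weeks 8 and 10. For Erbb4 the log2 difference between tumors of the same age was 1.17 ± 0.40 (adjusted p = 0.241), with the levels given above, and it lay between 0.54, without replicate 1 of the WT tumors of week 10, and 1.52 with 1 library left out. For Ereg the difference was -0.79 ± 0.38 between tumors of the same age (adjusted p = 0.451) and -1.13 ± 0.37 between glands (adjusted p = 0.179), where group means at weeks 8, 10 and 12 were 7.56, 5.56 and 6.84 CPM in WT against 13.3, 12.1 and 18.6 in KO. Between glands, Erbb2 (0.23 ± 0.09, adjusted p = 0.265) and Erbb3 (0.38 ± 0.14, adjusted p = 0.238) had unadjusted p-values under 0.05 as well. Of the 6 KO glands 3 were rich in rRNA and of the WT glands none, and the genes called between glands numbered 331 of all tested, 52 with the rRNA share as a covariate and 27 without the 4 libraries rich in rRNA. Under these alternatives the gland differences were -0.97 and -1.06 for Ereg, 0.26 and 0.21 for Erbb2, and 0.37 and 0.51 for Erbb3, with adjusted p-values from 0.446 to 0.729. For the abundant receptors the intervals were narrow: the 95% interval between tumors of the same stage was -0.32 to 0.11 for Egfr, -0.19 to 0.09 for Erbb2 and -0.21 to 0.23 for Erbb3. For Areg it was -0.49 to 1.05 and for Nrg1 -0.56 to 0.42, so that the interval of Areg reached past the fold threshold.

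The tumor effect itself (tumor minus gland, weeks 8 and 10) was also compared between the genotypes, and 0 of the 10 genes were called (background 0.00548%). The counts were 2 at an unadjusted p under 0.05 and 0 by DESeq2, against 2038 and 74 of all 36527 genes. The 2 genes were Erbb4, with a difference of 1.89 ± 0.65 (adjusted p = 0.815), and Areg, with -1.67 ± 0.77 (adjusted p = 0.875). Leaving out 1 library moved the Areg difference between -2.32 and -0.34, the latter without replicate 2 of the WT glands of week 8. For Nrg1 the difference was -0.33 ± 0.48 (adjusted p = 1), with a 95% interval of -1.28 to 0.62.

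Change with age was examined within tumors and within glands. Between week 6 and week 10 in WT tumors 0 of the 10 genes were called (background 0.011%), although 5 had an unadjusted p under 0.05 and DESeq2 called 1 (Ereg), against 3122 and 253 of all 36527 genes. Group means were 8.77 and 2.28 CPM for Ereg (-1.95 ± 0.55, adjusted p = 0.424), 19.8 and 8.290 for Nrg1 (-1.25 ± 0.44, adjusted p = 0.497) and 161 and 81.9 for Hbegf (-0.98 ± 0.34, adjusted p = 0.486), all short of the threshold. For Erbb4 the means were 0.303 and 0.916 CPM (1.55 ± 0.58, adjusted p = 0.512), and for Erbb2 77.5 and 97.1 (0.32 ± 0.13, adjusted p = 0.527). Leaving out 1 library moved the Erbb4 value between 0.29 and 1.94. Between week 8 and week 12 in KO tumors 0 genes were called (background 0%), with 0 at an unadjusted p under 0.05 and 0 by DESeq2, against 2878 and 125 of all genes. Between week 6 and week 12 in WT glands 0 were called (background 0.35%), with 4 at an unadjusted p under 0.05 and 1 (Areg) by DESeq2, against 2994 and 683 of all genes. There Areg had means of 33.3 and 5.59 CPM (-2.58 ± 0.88, adjusted p = 0.336), Tgfa 42.2 and 25.0 (-0.75 ± 0.26, adjusted p = 0.343), Btc 5.72 and 2.81 (-1.02 ± 0.48, adjusted p = 0.579) and Hbegf 156 and 81.9 (-0.93 ± 0.41, adjusted p = 0.557).

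In the order of the 13 groups with 2 or 3 libraries, neighbouring groups mostly overlapped. Among the 12 pairs of neighbours, ranges were free of overlap in 0 pairs for Egfr, Ereg and Tgfa, in 1 for Erbb3, Erbb4, Hbegf and Nrg1, and in 2 for Erbb2, Areg and Btc. Areg was highest in WT glands of week 10 (51.8 ± 35.2 CPM, SD, n = 2) and lowest in KO glands of week 8 (3.67 ± 1.03, n = 2), so that both ends of its order were tumor-free glands. Nrg1 was highest in WT glands of week 6 (50.9 ± 28.5 CPM, n = 2) and lowest in WT tumors of week 8 (7.07 ± 2.14, n = 3). Ereg was highest in KO glands of week 12 (18.6 ± 11.7 CPM, n = 2) and lowest in WT tumors of week 10 (2.28 ± 1.72, n = 3). Erbb3 and Erbb4 were both highest in WT tumors of week 8 (212 ± 13.2 and 2.00 ± 0.574 CPM, n = 3) and lowest in KO glands of week 12 (114 ± 3.48 and 0.254 ± 0.150 CPM, n = 2).

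Other genes of the pathway were taken from 5 lists, whose counts stand against 15.7% of all genes called in WT and 10.6% in KO, shares that come to at most 2 genes in any of these lists. Of 5 other EGF-family ligands, 2 were called higher in WT tumors, Nrg2 (1.91 ± 0.41) and Epgn, which encodes epigen (1.11 ± 0.26), and Nrg2 was called higher in KO tumors (1.51 ± 0.45). Nrg2 was also the member of these lists that was called higher in WT than in KO tumors of the same age (1.75 ± 0.42, adjusted p = 0.0736), with means of 1.92 and 0.568 CPM. Of 6 genes of ligand shedding, the protease genes Adam17 (0.61 ± 0.06) and Adam10 (-0.61 ± 0.16) were called in opposite directions in WT tumors, and Adam9 (0.75 ± 0.11) and Adam12 (-0.67 ± 0.15) in KO tumors. Of 11 genes of receptor restraint and turnover, the feedback inhibitor Errfi1 was called higher in both genotypes (1.14 ± 0.14 in WT, 0.83 ± 0.14 in KO), and in WT also Lrig1 (0.64 ± 0.08), which promotes loss of ErbB receptors, with the ubiquitin ligase Cbl lower (-0.59 ± 0.17). Median log2 fold changes of these 3 lists were 0.72, 0.01 and 0.02 in WT and 1.06, 0.14 and 0.07 in KO.

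Of 12 receptor adaptors and partners, Muc1 was called higher in tumors of both genotypes (2.40 ± 0.46 in WT, 1.92 ± 0.42 in KO) and Gab2 in KO tumors (0.66 ± 0.12). Muc1, a membrane mucin that associates with ErbB receptors, was also called lower in WT than in KO mice in all 3 genotype comparisons, with means of 10.1 and 102 CPM in tumors of the same age (-3.34 ± 0.47, adjusted p = 0.00128) and 4.04 and 30.6 CPM in glands (-3.02 ± 0.48, adjusted p = 0.00421). Grb2, an adaptor that binds the phosphorylated receptors, was lower in WT than in KO glands (-0.62 ± 0.16, adjusted p = 0.0781). The KO glands rich in rRNA enter these values too, and the part of rRNA in the gland values of Muc1 and Grb2 was not tested. The median log2 fold change of this list in tumors was -0.12 in WT and -0.05 in KO. Of the 3 hormone receptors in the last list, Pgr (-5.47 ± 0.50), Esr1 (-2.02 ± 0.31) and Prlr (-1.24 ± 0.35) were all called lower in WT tumors, and Pgr (-4.25 ± 0.49) and Esr1 (-0.84 ± 0.31) in KO tumors.

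The members were then compared with each other over the 19 tumors and, separately, over the 14 glands, on log2 CPM. In all, 150 relations were computed (45 pairs of members and, for each member, its relation with the summed luminal, basal and hormone-sensing marker lists, in both tissues), and p-values came from 100000 permutations with Benjamini-Hochberg adjustment over the 150, the smallest p possible being 1e-05. Among the 45 pairs, 13 positive and 13 negative correlations passed an adjusted p of 0.05 in tumors, and 9 positive and 10 negative in glands. Libraries share group, depth and composition, so r was also computed on deviations from the group means. The permutations moved libraries freely across groups, and the share of other gene pairs that would pass was not computed. The counts of passing pairs here and below thus have no background beside them.

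**Figure D4:**
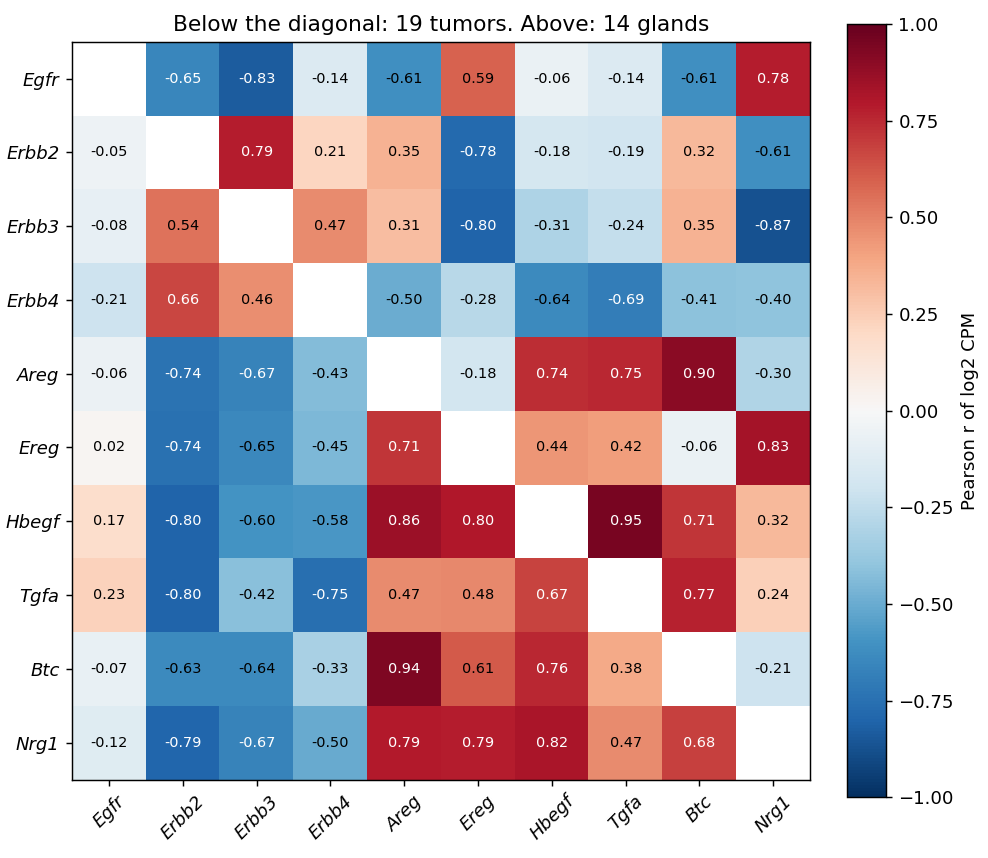
Pearson r of log2 CPM for each pair of the 10 genes over the 19 tumors and over the 14 glands. In tumors all 15 pairs of ligands were positive, and Erbb2 was negative with all 6 ligands.

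In tumors the ligands varied together. All 15 ligand pairs were positive, with r from 0.377 to 0.937 and a median of 0.714, and 11 passed; in glands 11 of 15 were positive, from -0.303 to 0.949, and 7 passed. Areg and Btc were the closest pair in tumors (r = 0.937, permutation p = 1e-05, adjusted p = 0.0005, rho = 0.928, permutation p = 1e-05, adjusted p = 0.00075) and were close in glands (r = 0.905, permutation p = 6e-05, adjusted p = 0.000964, rho = 0.868, permutation p = 0.00015, adjusted p = 0.00187). With the 2 most extreme Areg libraries left out, r was 0.904 in tumors and 0.868 in glands, and within groups it was 0.929 and 0.866. Hbegf and Tgfa were the closest pair in glands (r = 0.949, permutation p = 2e-05, adjusted p = 0.0006, rho = 0.921, adjusted p = 0.00112, 0.943 without 2 libraries, 0.830 within groups) and weaker in tumors (r = 0.672, permutation p = 0.00237, adjusted p = 0.0079, rho = 0.674). Ereg and Nrg1 varied together in both tissues (r = 0.787 in tumors, permutation p = 5e-05, adjusted p = 0.000937, and 0.834 in glands, permutation p = 0.00024, adjusted p = 0.00171). Areg and Ereg, although neighbours, were positive in tumors (r = 0.714, permutation p = 0.00059, adjusted p = 0.0034) and not in glands (r = -0.183); the difference between the tissues was not tested.

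**Figure D5:**
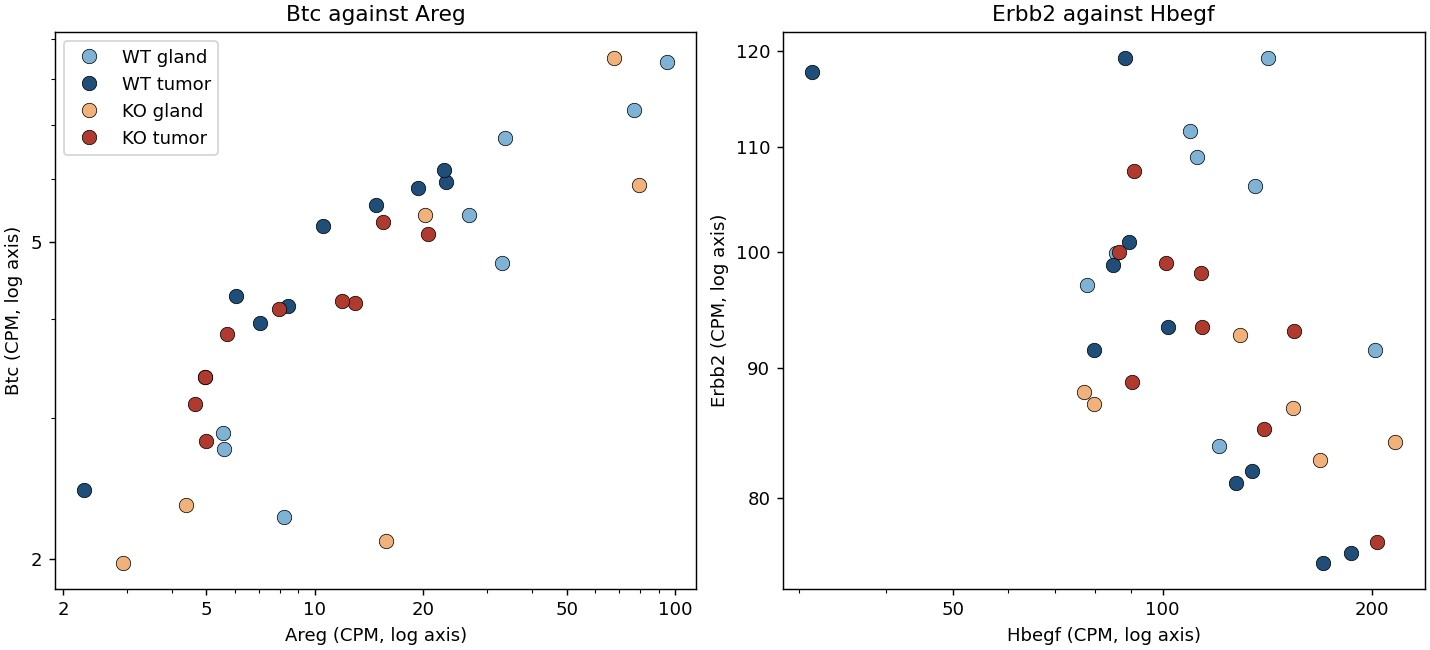
Btc against Areg and Erbb2 against Hbegf, each point 1 of the 33 libraries, in CPM on log axes, colored by genotype and tissue. Btc was higher where Areg was higher in tumors (r = 0.937) and glands (r = 0.905), and Erbb2 was lower where Hbegf was higher in tumors (r = -0.801), with r = -0.175 in glands.

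Some receptors ran against some ligands, while Egfr in tumors passed with none of the 6. In tumors Erbb2 was negative with all 6 ligands past an adjusted p of 0.05, among them Nrg1 (r = -0.789, permutation p = 0.00012, adjusted p = 0.00112, rho = -0.809, adjusted p = 0.00164, -0.846 without 2 libraries, -0.845 within groups), Tgfa (r = -0.805, permutation p = 3e-05, adjusted p = 0.00075, rho = -0.711, adjusted p = 0.00593, -0.689 without 2 libraries) and Hbegf (r = -0.801, permutation p = 1e-05, adjusted p = 0.0005, rho = -0.767, adjusted p = 0.00279). For Erbb2 and Hbegf r was -0.809 without the 2 farthest libraries and -0.945 within groups, although Erbb2 itself spanned 1.58-fold. Erbb3 was negative with Nrg1, its own ligand, in glands (r = -0.869, permutation p = 0.0001, adjusted p = 0.001, rho = -0.886, adjusted p = 0.00164, -0.883 without 2 libraries, -0.909 within groups) and in tumors (r = -0.670, permutation p = 0.00185, adjusted p = 0.0073, rho = -0.718, -0.673 without 2 libraries, -0.419 within groups). In glands Egfr and Erbb3 were opposed (r = -0.830, permutation p = 0.00033, adjusted p = 0.00206, rho = -0.877), and Egfr was positive with Nrg1 (r = 0.782, permutation p = 0.00106, adjusted p = 0.00513, rho = 0.767).

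These relations went along with the marker lists. In glands Egfr was positive with the basal sum (r = 0.759, permutation p = 0.00166, adjusted p = 0.00692) and negative with the luminal sum (r = -0.725, permutation p = 0.0039, adjusted p = 0.0115), while Areg (r = 0.728, permutation p = 0.00371, adjusted p = 0.0114) and Btc (r = 0.798, permutation p = 0.00071, adjusted p = 0.00394) were positive with the luminal sum. The hormone-sensing sum, a relation added after the values were seen and led by Prlr at 16.2 to 143 CPM, was positive in glands with Erbb3 (r = 0.849, permutation p = 0.00029, adjusted p = 0.00189) and Erbb2 (r = 0.762, permutation p = 0.00222, adjusted p = 0.00774). It was negative there with Egfr (r = -0.805, permutation p = 0.00082, adjusted p = 0.00424), Ereg (r = -0.789, permutation p = 0.00106, adjusted p = 0.00513) and Nrg1 (r = -0.764, permutation p = 0.00181, adjusted p = 0.0073), and its r with Areg was 0.554 (permutation p = 0.0415, adjusted p = 0.078). In tumors its r with Areg had the other sign (-0.603, permutation p = 0.00677, adjusted p = 0.0169, rho = -0.519, adjusted p = 0.0559, -0.504 without 2 libraries, -0.576 within groups). It was positive there with Erbb2 (r = 0.783, permutation p = 9e-05, adjusted p = 0.000964) and negative with Tgfa (r = -0.778, permutation p = 8e-05, adjusted p = 0.000964) and Hbegf (r = -0.728, permutation p = 0.0002, adjusted p = 0.0015). The luminal sum in tumors was positive with Hbegf (r = 0.799, permutation p = 0.00014, adjusted p = 0.00124) and negative with Erbb2 (r = -0.778, permutation p = 7e-05, adjusted p = 0.000964). The part of cell composition in the pairs of members was not tested.

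For each member the 2 genes most like it, other members left out, were found among 12753 genes, by the lower of the r over 19 tumors and the r over 14 glands, as a description with no test. For Erbb2 they were Stard3 (r = 0.853 in tumors and 0.917 in glands) and Mtss1 (0.871 and 0.846), for Erbb3 Ddi2 (0.827 and 0.823) and Gpbp1l1 (0.817 and 0.827), for Egfr Sema6a (0.729 and 0.773) and Arf4 (0.719 and 0.723), and for Erbb4 Zscan26 (0.791 and 0.808) and Acss1 (0.780 and 0.773). For Areg the gene given is Nipal1 (0.822 and 0.840), for Ereg they were Csf3 (0.827 and 0.887) and Mest (0.861 and 0.810), and for Hbegf Sema7a (0.870 and 0.901) and Etv4 (0.867 and 0.907). For Tgfa they were Tpm3 (0.901 and 0.888) and Kctd11 (0.852 and 0.887), for Btc 0610010F05Rik (0.825 and 0.826) and Zdhhc2 (0.834 and 0.823), and for Nrg1 Plaur (0.861 and 0.868) and Axl (0.847 and 0.922). The libraries behind each r share their group, depth and composition.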

How the data were processed

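Total RNA of sorted cells was depleted of rRNA and sequenced. Per the labels and the study's methods, the authors aligned reads to GRCm38 with HISAT, removed duplicates with Picard and counted them per Gencode gene with HTSeq. The deposited counts are whole reads, not normalized. A deposited signal table, the counts divided by size factors, was read as a check only. Whether counting used strand is not given in the sources used here. Rows of 111 spike-in, reporter and transgene sequences (0.0778% of reads) were left out.

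Counts were scaled by TMM and fitted with edgeR 4.0.16 in R 4.3.3 (quasi-likelihood test, 1 coefficient for each of 14 groups, genes with at least 10 reads in all). CPM use the same scaling. Lengths and coordinates came from GENCODE vM21 (GRCm38). Correlations used scipy 1.17.1. Each replicate is 1 mouse, and the 25 pairs of replicates differed beyond counting noise. The analysis was tested on simulated data. DESeq2 1.42.0, filters, a replicate block, an rRNA covariate and leaving out libraries were tried as alternatives. The members, gene lists and tests were chosen with earlier results of these data known. All members were named, with up to 4 called genes of each list. Hbegf is given without sequence, and 1 gene most like Areg is not reported here. Intervals of fold changes come from the standard errors of the edgeR fit. These include the spread between replicate libraries and not counting error alone.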

Additional observations from a re-analysis of the deposited data

Results flagged for a closer look

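In the 8 WT glands, Ereg was far higher in replicate 1 of week 6 (25.3 CPM) than in the next library (11.3 CPM). The gap was 0.654 of the range of these glands. It was 1 of 40 sets of libraries tested, of which chance alone would give about 2, and without this library the WT tumor value of Ereg over the mean of weeks was -0.71 (adjusted p = 0.167, edgeR).

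At week 8, Erbb4 was higher in all WT tumors than in the WT glands (log2 fold change 2.86) and lower in all KO tumors than in the KO glands (-0.35). Of all genes, 16.3% had WT tumors of week 8 above the glands with no overlap and 12.5% had KO tumors of week 8 below them. Hbegf had the opposite signs, lower in all WT tumors (-0.34) and higher in all KO tumors (0.43), patterns shown by 17.0% and 15.0% of all genes. The difference between the genotypes at week 8 alone was not tested, and over weeks 8 and 10 it had an adjusted p of 0.815 for Erbb4 and 1 for Hbegf (edgeR's quasi-likelihood test).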

How the results depend on the processing

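No gene value or count turned its direction past a threshold under any alternative. Of 1200 gene values under the alternatives other than leaving out single libraries, 26 newly passed and 13 no longer passed, and of 1380 with 1 library left out, 10 and 38. Some comparisons that called 0 genes called more under other filters, DESeq2 or a fit on the groups compared only. WT week 6 gave 1 with no filter, 1 with the stricter filter, 1 with DESeq2 and 2 with only its groups, and KO week 8 gave the same 4 counts. Of all genes, these settings called 2866, 2703, 3065 and 3004 at WT week 6, where the main fit called 2139. At KO week 8 they called 1613, 1297, 1695 and 1416, against 909 in the main fit. WT week 10 (2 called) gave 0 with only its groups, and KO week 12 (2 called) gave 0 so, and 1 each with DESeq2 size factors, the rRNA covariate and the replicate block. With only its groups, 995 of 24137 genes were called at WT week 10 (2240 in the main fit). At KO week 12 it was 0 of 22035 (2233 in the main fit), so no gene kept a call there. The 3 other settings called 2207, 2243 and 1946 genes at KO week 12. The setting without the 4 libraries rich in rRNA was chosen after seeing the data. No filter gave 1 for tumors of the same age, 1 for glands between genotypes, 3 for WT tumors with age and 1 for WT glands with age, DESeq2 gave 1 in each of these 4, and only the groups compared gave 1 for WT glands with age. In these 4 comparisons the main fit called 187, 331, 4 and 128 of all genes. No filter called 573, 722, 440 and 558, and DESeq2 called 664, 741, 253 and 683. Only the groups compared called 153 for WT glands with age. The cause was not tested.

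Leaving out 1 library gave counts of 2 to 4 for the WT mean of weeks, 2 to 3 for the KO mean, 2 to 3 for WT week 8, 0 to 4 for WT week 10, 1 to 2 for KO week 10, 1 to 3 for KO week 12, 0 to 2 for WT tumors with age and 0 to 1 for glands between genotypes; these fits kept the dispersion trend of all 33 libraries. Replicate numbers did not pair the samples (r of deviations from -0.32 to 0.155 over 2000 genes), and the replicate block changed no other count by over 1.5 times. Of 300 correlation values under DESeq2 size factors or without the 4 libraries, 7 newly passed and 12 no longer passed. Depth limits Erbb4, with 3 to 247 reads per library.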
